A study of Mus musculus with 35 samples.

Results

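The basement membrane genes described here are 10 genes chosen by symbol: the laminin chain genes Lama1, Lama5, Lamb1 and Lamc1, the collagen IV chain genes Col4a1 and Col4a2, the linker gene Nid1, the proteoglycan genes Hspg2 and Agrn, and Sparc. They are 10 of 54446 genes in the expression table, and each matched 1 row. Levels are given as TPM, a length-corrected and total-scaled share of all transcripts in a library, in 27 bulk RNA libraries of 9 groups with 3 libraries each. Of the 35 samples in the series, 8 (single-cell RNA and bisulfite libraries) were not analysed here.

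A basement membrane is a thin sheet of matrix that lines the basal side of an epithelium. Laminin heterotrimers of an α, a β and a γ chain form its first network at the cell surface, collagen IV forms a second network, and nidogen and the heparan sulfate proteoglycans perlecan and agrin join and fill them. In the early embryo such sheets lie between primitive endoderm and epiblast and later under the epiblast epithelium, and the primitive streak is the place where cells cross them.

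All groups were labelled wild-type. The embryo groups came from untreated CD-1 embryos labelled male/female: inner cell mass at embryonic day E3.5, and epiblast, the tissue that forms the embryo proper, on each of the following 4 days, from E4.5 to E7.5. According to the methods, natural matings of CD1 or Pdgfrα:H2B-GFP mice were used and each replicate pooled several embryos. The E3.5 inner cell mass was cut from the trophectoderm with a laser, and is a tissue known to hold precursors of both epiblast and primitive endoderm. At E4.5 the trophectoderm was removed by immunosurgery and the GFP line served to tell epiblast from primitive endoderm. From E5.5 the visceral endoderm and extra-embryonic ectoderm were dissected away, with the allantois also removed at E7.5. The culture groups were all pluripotent stem cells. ESC3D and Embryo3D are 3D epiblast stem cells (3D EpiSCs), derived from embryonic stem cells (ESCs) or from embryo epiblast, grown in Matrigel with FGF2, Activin A, the Wnt pathway inhibitor XAV939 and Noggin. Matrigel is itself a tumour basement membrane extract, rich in laminin and collagen IV. EpiSC is the conventional 2D epiblast stem cell, converted from ESCs with FGF2 and Activin A and, per the methods, kept on fibronectin. EpiLC is the epiblast-like cell, ESCs held for 48 h in FGF2 and Activin A. Medium, dimension, substrate and, for Embryo3D, cell source differ together between the 3D EpiSCs and the other culture groups and cannot be told apart. EpiSC and EpiLC share FGF2 and Activin A. Length of culture, 48 h for EpiLC, cannot be told apart from other differences between EpiLC and the maintained lines.

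The files give no read depth, so counting error is unknown, and the 3 libraries of a culture group are not said to be separate cultures, so p-values there measure the spread between libraries, which may be technical. Culture libraries were made from poly-A RNA and embryo libraries from total RNA with another kit, so levels in the 2 sets are given side by side and were not tested against each other. RNA of E3.5 and E4.5 was also fragmented differently from that of later stages, and this cannot be told apart from stage in E5.5 versus E4.5. In culture, 3 of 12 within-group pairs of libraries were near-identical (median absolute log2 difference below 0.1), and in embryos 0 of 15. ESC3D replicate 3 stood apart from the other 2 ESC3D libraries in several members. Markers of neighbouring tissues were high in the embryo libraries. The summed level of 17 extra-embryonic endoderm markers was 1014 to 1058 TPM at E3.5, 432 to 473 at E4.5, 1011 to 1079 at E5.5, 1574 to 1590 at E6.5 and 1779 to 1818 at E7.5, against 19.1 to 180.01 TPM over the 12 culture libraries. The visceral endoderm genes Afp, Ttr and Apoa1 averaged 81.0, 84.8 and 359 TPM in the libraries labelled E5.5 epiblast, although visceral endoderm had been removed. Of the 17 markers, 3 (Afp, Ttr and Rbp4) were listed at 0 in all E3.5 libraries and 2 (Afp and Rbp4) in all E4.5 libraries, and none was at 0 throughout from E5.5. Krt18, a keratin of trophoblast, averaged 1682 TPM at E3.5 and 1666 TPM at E4.5, and Cdx2, which specifies trophectoderm, averaged 161 TPM at E3.5. The epiblast gene Pou5f1 averaged 251 to 721 TPM over the embryo groups and 1389 to 1874 TPM over the culture groups. Primitive and parietal endoderm are known as strong producers of laminin, collagen IV and Sparc, and the part of these cells in the embryo levels below was not tested.

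RefSeq start sites place the 2 collagen IV genes head to head on chromosome 8 of GRCm38.p6, the genome that mm10 also denotes, with Col4a1 on the minus strand from 11312826 and Col4a2 on the plus strand from 11312805. Their annotated transcripts thus overlap by 22 bases on opposite strands, chr8:11312805-11312826. These are shown on the plus strand because the levels of the 2 genes are compared below, with a GC box (GGGCGG) in capitals.
Col4a1 and Col4a2: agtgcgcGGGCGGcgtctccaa
The next sequences are the 100 bases before the outermost annotated start of Lamb1 (chr12:31265134-31265233, plus strand), Nid1 (chr13:13437451-13437550, plus strand), Hspg2 (chr4:137468669-137468768, plus strand), Agrn (chr4:156197489-156197588, minus strand) and Lama5 (chr2:180225860-180225959, minus strand). They show a laminin β and an α chain, the linker and both proteoglycans, so that each role with a usable window is seen, and capitals mark GGGCGG or CCAAT on either strand.
Lamb1: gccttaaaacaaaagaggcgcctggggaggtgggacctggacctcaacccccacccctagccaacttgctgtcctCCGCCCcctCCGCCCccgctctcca
Nid1: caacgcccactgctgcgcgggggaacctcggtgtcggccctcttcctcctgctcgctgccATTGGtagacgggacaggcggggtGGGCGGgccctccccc
Hspg2: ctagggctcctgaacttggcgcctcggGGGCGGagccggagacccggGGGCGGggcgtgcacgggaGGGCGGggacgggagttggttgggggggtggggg
Agrn: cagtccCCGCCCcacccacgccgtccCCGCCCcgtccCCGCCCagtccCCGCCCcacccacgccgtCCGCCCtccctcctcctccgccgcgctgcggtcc
Lama5: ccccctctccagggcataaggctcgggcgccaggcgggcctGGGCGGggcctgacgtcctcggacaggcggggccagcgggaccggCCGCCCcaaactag
RefSeq windows were found for 8 of the 10 members (9 windows, 2 of them for Agrn). In the 250 bases upstream of the start, GGGCGG stood on either strand in 7 of these 9 windows and in 32.7% of all 32851 windows. CCAAT stood in 4 of 9 and in 33.8% of all, and TATAAA in 0 of 9 and in 12.4% of all. The member windows held 54% (Sparc) to 83.6% (Agrn) G and C in these bases, beside a median of 52.4% over all windows. The shares were not matched for base composition. These are matches of letters, not sites.

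The 4 laminin chains were highest at E3.5, and each was lower in every library of every later stage. Lama1 (chr17:67697259-67822647), the α1 chain of the first laminins of the embryo, stood at 332, 354 and 318 TPM in the 3 E3.5 libraries. It was at 77.0, 73.3 and 76.2 TPM at E4.5, at 68.7, 74.0 and 74.4 at E5.5, at 79.6, 94.0 and 82.6 at E6.5, and at 36.6, 35.7 and 36.4 at E7.5. Only E4.5 and E5.5 overlapped among neighbours in the order of its stage means, and the highest stage mean was 9.23 times the lowest. Lamc1 (chr1:153218922-153332786), the γ1 chain that nearly all laminins here share, ranged from 355 to 382 TPM at E3.5, and had its lowest levels, 57.6 to 58.3 TPM, at E7.5. Lamb1 (chr12:31265234-31329644), the β1 chain, was the most abundant member at E3.5 (374 to 412 TPM) but was still at 95.9 to 98.0 TPM at E7.5. Lama5 (chr2:180176373-180225859), the α5 chain that predominates in most later epithelia, ranged from 102 to 108 TPM at E3.5 to 28.8 to 32.3 TPM at E4.5.

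**Figure D1:**
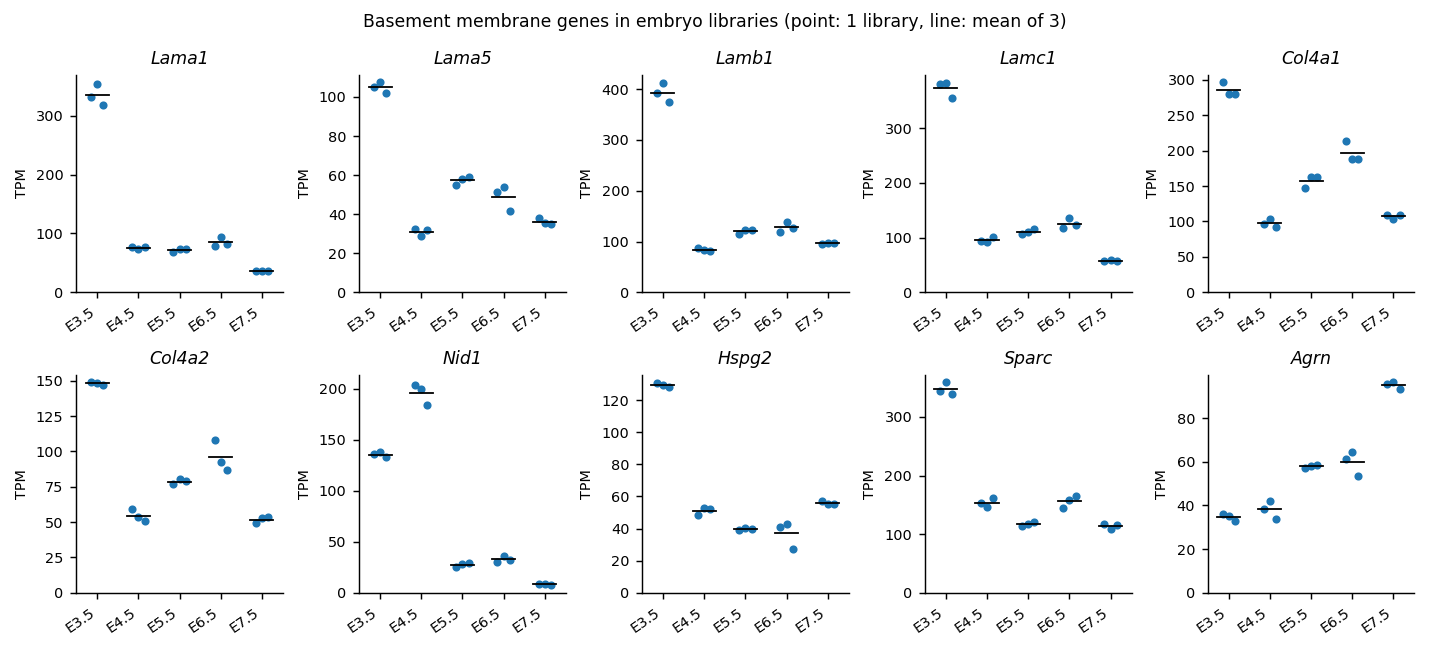
TPM (vertical axis, linear, from 0) of each of the 10 genes in the 15 embryo libraries by stage (horizontal axis), with 1 point per library and a line at the mean of 3. Of the 10 genes, 8 peaked at E3.5, Nid1 peaked at E4.5 with a mean of 196 TPM, and Agrn was highest at E7.5 with a mean of 95.2 TPM.

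Between E3.5 and E4.5, 8 of the 10 members fell and none rose. A gene was called here when the adjusted p of limma (Benjamini-Hochberg over all genes tested) was below 0.05 and the log2 difference of log2(TPM + 1) exceeded 1 in size. Over the 11880 genes tested, 11.9% were called lower and 5.88% higher at E4.5. All 4 laminin chains fell, Lamb1 by 2.21 ± 0.08 (SE) on the log2 scale, Lama1 by 2.13 ± 0.08, Lamc1 by 1.96 ± 0.08 and Lama5 by 1.73 ± 0.10, with adjusted p-values from 5.4e-11 to 4.5e-09. For Lamb1 this was a 4.63-fold difference. In all 8 members that fell, the 3 libraries of each stage did not overlap, and the share of all genes without overlap was not counted.

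The collagen IV chains, which form 1 trimer with more α1 than α2, fell together. Col4a1 (chr8:11198423-11312826) stood at 297, 279 and 280.4 TPM in the E3.5 libraries and at 95.8, 104 and 92.0 TPM at E4.5, a log2 difference of -1.55 ± 0.08 (adjusted p = 2.6e-09). Col4a2 (chr8:11312805-11449287) stood at 149, 148 and 147 TPM and then at 59.0, 53.8 and 50.8 TPM, a log2 difference of -1.43 ± 0.09 (adjusted p = 1.5e-08). Hspg2 (chr4:137468769-137570630), which encodes perlecan, fell by 1.33 ± 0.13 on the log2 scale, from 128 to 131 TPM to 48.2 to 52.9 TPM. Sparc (chr11:55394500-55423183), a collagen-binding matricellular protein, fell by 1.17 ± 0.08, from 338 to 359 TPM to 146 to 162 TPM.

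The 2 members that did not fall were Nid1 and Agrn. Nid1 (chr13:13437551-13512269), which encodes the nidogen that links laminin to collagen IV, stood at 136, 138 and 133 TPM at E3.5 and at 204, 199.7 and 184 TPM at E4.5. The 2 stages did not overlap, but the log2 difference of 0.53 ± 0.09 (adjusted p = 0.00034) was under the size limit for a call. Agrn (chr4:156165290-156197488), the proteoglycan agrin, stood at 33.0 to 35.9 TPM and at 34.0 to 42.2 TPM, a log2 difference of 0.13 ± 0.09 (adjusted p = 0.25), and these stages overlapped. The median log2 difference of the 10 members was -1.49, beside -0.10 over all genes tested. Of the 17 extra-embryonic endoderm markers, 8 fell in the same comparison, none rose and 9 were not called. The shares over all genes were 11.9% lower and 5.88% higher. Gata6, a primitive endoderm factor, fell from 118 to 8.64 TPM and Pdgfra from 114 to 3.23 TPM. Per the methods, E4.5 epiblast cells were picked as GFP-negative in the Pdgfrα:H2B-GFP line, so low Pdgfra was part of how they were chosen. Cubn, not called, stood at 48.7 TPM at E3.5 and 91.9 TPM at E4.5. Of the trophoblast markers, 2 of the 8 tested rose and 2 fell. In bulk libraries, fewer cells of a type and less RNA per cell cannot be told apart.

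Between E4.5 and E5.5, the steps around implantation, Nid1 alone was called. It fell from the values above to 24.8, 27.8 and 29.4 TPM, a log2 difference of -2.80 ± 0.09 (adjusted p = 1.9e-11) or 6.96-fold. Of all genes tested, 9.47% were called lower and 14.9% higher at E5.5. The other members moved in both directions by less than the size limit. Lama5 was at 54.9 to 59.0 TPM at E5.5 against 28.8 to 32.3 TPM at E4.5, with no overlap and a log2 difference of 0.87 ± 0.10. The log2 differences of Col4a1, Agrn, Col4a2 and Lamb1 were 0.69, 0.60, 0.52 and 0.51, and those of Sparc and Hspg2 were -0.39 and -0.35. Lama1 differed by -0.06 ± 0.08, within the spread of its libraries (adjusted p = 0.53). All 8 trophoblast markers tested fell at this step, and 8 of 17 extra-embryonic endoderm markers rose, led by Apoa1, from 0.788 to 359 TPM.

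From E5.5 to E6.5 none of the 10 members was called at the stated size, with 0.715% of tested genes called higher and 0.48% lower. limma without the size limit gave an adjusted p below 0.05 for 2 of the 10, beside 10.8% of all genes tested. Sparc was at 145 to 166 TPM at E6.5 against 114 to 121 TPM at E5.5, a log2 difference of 0.41 ± 0.08 (adjusted p = 0.0050). Col4a1 was at 213, 188 and 188 TPM against 148, 163 and 163 TPM, a log2 difference of 0.31 ± 0.08 (adjusted p = 0.026), and its adjusted p reached 0.098 in a fit of the compared groups alone and was also above 0.05 without any 1 of the E5.5 replicates or without E6.5 replicate 1. limma's unadjusted p was below 0.05 for 7 of the 10, beside 26.6% of all genes tested. Hspg2 was the most uneven member within a stage at E6.5, at 40.8, 42.8 and 27.3 TPM. Of the 11 streak and mesoderm markers, 8 were called higher at E6.5 and 0 lower.

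Between E6.5 and E7.5, when gastrulation is under way, 3 members fell: Nid1, Lama1 and Lamc1. Of all genes tested, 1.94% were called lower and 10.6% higher at E7.5. Nid1 went from 30.1, 35.8 and 31.8 TPM to 8.33, 8.60 and 7.19 TPM, a log2 difference of -1.89 ± 0.09 (adjusted p = 3.0e-09). Lama1 fell by 1.21 ± 0.08 on the log2 scale (adjusted p = 5.4e-08) and Lamc1 by 1.10 ± 0.08 (adjusted p = 9.3e-08), both without overlap. Col4a1 and Col4a2 were lower by 0.87 ± 0.08 and 0.87 ± 0.09, again without overlap, and were not called. They were called when levels were rescaled by median-of-ratios factors (-1.20 for each) or to the sum of protein-coding genes (-1.02 and -1.03). The median gene stood 0.31 higher at E7.5 on the log2 scale, 0.01 higher after median-of-ratios scaling and 0.19 higher after protein-coding scaling, and the share of calls that were higher was 84.6%, 65.8% and 77.0% under the 3 scalings.

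The 2 proteoglycans stood on the other side of this step. Agrn was at 95.8, 96.7 and 93.3 TPM at E7.5 against 61.3, 64.5 and 53.4 TPM at E6.5, a log2 difference of 0.67 ± 0.09 (adjusted p = 5.4e-05). Hspg2 was at 55.3 to 56.9 TPM against 27.3 to 42.8 TPM, a log2 difference of 0.61 ± 0.13 (adjusted p = 0.0015). Both groups were separate in every library and both differences kept their sign under either rescaling, but neither passed the size limit. Of the 17 extra-embryonic endoderm markers 2 rose and 3 fell, beside 10.6% and 1.94% of all genes tested. Of the epiblast markers 6 of 7 fell. Of the 11 streak and mesoderm markers 6 rose and 4 fell, and of the 8 trophoblast markers tested 4 rose and 1 fell. The part of these cell types in the results of this step was not tested.

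**Figure D2:**
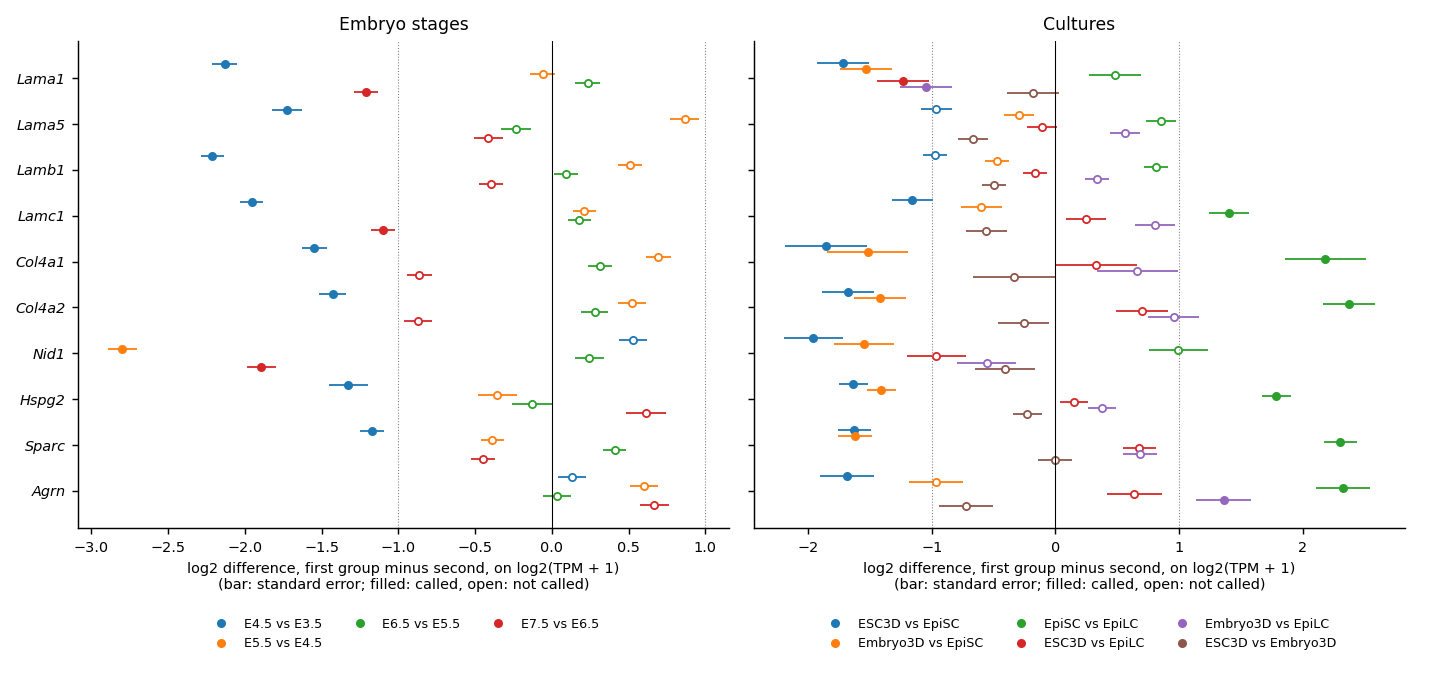
Log2 difference of log2(TPM + 1), first group minus second (horizontal axis), for each of the 10 genes (vertical axis) in 4 embryo and 6 culture comparisons, with bars for the standard error, filled points for called genes and dotted lines at a difference of 1. In the embryo panel, the E4.5 versus E3.5 points of 8 genes are filled and below -1, and in the culture panel every gene is lower in ESC3D than in EpiSC.

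In culture, 2D EpiSCs held more of every member than the other 3 groups, and for 9 of the 10 their lowest library stood above every other culture library. The exception was Lama1, where EpiSC and EpiLC overlapped. How many of all genes tested were separated in this way was not counted. The comparisons below share groups and are thus not independent of each other. ESC3D against EpiSC had 8 members called, all lower in ESC3D, beside 9.25% of the 11541 genes tested called lower and 0.633% called higher. The log2 differences were -1.96 ± 0.24 for Nid1, -1.85 ± 0.33 for Col4a1, -1.72 ± 0.21 for Lama1, -1.68 ± 0.21 for Col4a2, -1.68 ± 0.22 for Agrn, -1.63 ± 0.12 for Hspg2, -1.62 ± 0.14 for Sparc and -1.16 ± 0.16 for Lamc1. Adjusted p-values for these ran from 3.7e-06 for Hspg2 to 0.0013 for Col4a1. Genes were tested when above 2 TPM in at least 3 libraries. Lama1, at 0.348 to 0.610 TPM in ESC3D and 0.573 to 0.720 TPM in Embryo3D, passed this filter only through EpiSC and EpiLC libraries. In these 3D EpiSCs it could thus be called only lower than in EpiSC. Lamb1 (-0.97 ± 0.10) and Lama5 (-0.96 ± 0.12) were just under the size limit, and both passed it without ESC3D replicate 3 (-1.04 and -1.07). Lamb1 also passed it without EpiSC replicate 3 (-1.03). The Lamc1 call was lost under median-of-ratios scaling (-0.94), since the median gene stood 0.21 lower in ESC3D in TPM and 0.01 lower after that scaling.

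Sparc was the most abundant member in every culture group. It stood at 411, 413 and 419.97 TPM in EpiSC, at 145, 147 and 113 TPM in ESC3D, at 110.5, 146 and 149 TPM in Embryo3D and at 78.0, 90.8 and 81.2 TPM in EpiLC. The EpiSC libraries were more than 2 times as high as any other, and both kinds of 3D EpiSC lay above EpiLC in each library. Agrn stood at 179, 172 and 136 TPM in EpiSC, at 45.5, 43.0 and 61.6 TPM in ESC3D, at 56.4, 99.8 and 98.0 TPM in Embryo3D and at 36.7, 29.5 and 28.5 TPM in EpiLC. The Embryo3D libraries were split, with replicate 1 inside the range of ESC3D.

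Embryo3D against EpiSC had 6 members called, all lower in Embryo3D, beside 7.75% of tested genes called lower and 1.07% higher. They were Sparc (-1.62 ± 0.14), Nid1 (-1.55 ± 0.24), Lama1 (-1.53 ± 0.21), Col4a1 (-1.52 ± 0.33), Col4a2 (-1.42 ± 0.21) and Hspg2 (-1.41 ± 0.12). The limit given above for Lama1 holds here too. Col4a1 lost its call when near-identical replicates were averaged (adjusted p = 0.060). The laminin chains of the common trimer differed less: Lama5 by -0.29 ± 0.12 (adjusted p = 0.091), Lamb1 by -0.47 ± 0.10 (adjusted p = 0.0033) and Lamc1 by -0.60 ± 0.16 (adjusted p = 0.016). Agrn missed the size limit at -0.96 ± 0.22 and passed it without EpiSC replicate 3 (-1.09), without Embryo3D replicate 2 (-1.10) or without replicate 3 (-1.09), and with near-identical replicates averaged (-1.04, adjusted p = 0.044).

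ESC3D against Embryo3D had none of the 10 members called, with 1.98% of tested genes called higher and 1.98% lower in ESC3D, a split of 49.9% higher among calls that became 64.4% under median-of-ratios scaling. limma gave an adjusted p below 0.05 for 4 of the 10 without the size limit, beside 21.1% of all genes tested, all lower in ESC3D: Agrn (-0.72 ± 0.22), Lama5 (-0.67 ± 0.12), Lamc1 (-0.56 ± 0.16) and Lamb1 (-0.50 ± 0.10). With near-identical replicates averaged none of the 4 kept it (adjusted p = 0.40, 0.12, 0.34 and 0.16 in the same order). limma's unadjusted p was below 0.05 for the same 4, beside 37.5% of all genes tested. Sparc differed by less than 0.01 on the log2 scale with an SE of 0.14.

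EpiSC against EpiLC had 6 members called, all higher in EpiSC, beside 15.2% of tested genes called higher and 5.14% lower. They were Col4a2 (2.38 ± 0.21), Agrn (2.32 ± 0.22), Sparc (2.30 ± 0.14), Col4a1 (2.18 ± 0.33), Hspg2 (1.78 ± 0.12) and Lamc1 (1.40 ± 0.16), with adjusted p-values from 9.8e-08 for Sparc to 0.00016 for Col4a1. Nid1 was at 7.99 to 8.12 TPM in EpiSC and 2.83 to 4.09 TPM in EpiLC, a log2 difference of 0.99 ± 0.24 (adjusted p = 0.0040), just under the limit, and was called without EpiLC replicate 1 (1.07) or replicate 3 (1.04). Under median-of-ratios scaling the same 6 members were called, and higher genes made up 63.0% of calls in place of 74.8%.

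Against EpiLC, few members of the 3D EpiSCs passed the size limit. In ESC3D only Lama1 was called, lower by 1.23 ± 0.21 on the log2 scale (adjusted p = 0.00063), beside 7.11% of tested genes called lower and 5.33% higher. In Embryo3D Lama1 was lower by 1.05 ± 0.21 (adjusted p = 0.0013) and Agrn higher by 1.36 ± 0.22 (adjusted p = 0.00028), beside 8.28% called lower and 10.5% higher. Without the size limit, limma gave an adjusted p below 0.05 for 5 of the 10 members in ESC3D, beside 45.4% of all genes tested, and for 8 of the 10 in Embryo3D, beside 56% of all genes tested. The Lama1 levels behind these calls were low: 0.348, 0.411 and 0.610 TPM in ESC3D, 0.573, 0.659 and 0.720 TPM in Embryo3D, 3.17, 1.34 and 3.06 TPM in EpiLC and 4.75, 3.99 and 2.78 TPM in EpiSC. All 6 libraries of 3D EpiSCs lay below all 6 of EpiSC and EpiLC. Lama1 passed the filter on low values only through EpiSC and EpiLC libraries, and in a fit of the compared groups alone it missed the filter in both comparisons with EpiLC and had no test. On the log2(TPM + 1) scale the change of so low a gene is understated, and with a pseudocount of 0.1 the difference of ESC3D from EpiLC was -2.17. The Lama1 call of Embryo3D was lost without EpiLC replicate 1 (-0.90) or replicate 3 (-0.92). Nid1 was lower in ESC3D than in EpiLC by 0.96 ± 0.24 (adjusted p = 0.0067), at 0.793, 0.847 and 2.86 TPM against 4.09, 2.83 and 3.87 TPM, and was called without ESC3D replicate 3 (-1.33) or EpiLC replicate 2 (-1.09).

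Col4a1 and Col4a2 were uneven within EpiLC. Col4a1 stood at 18.0, 8.68 and 5.52 TPM there, so its range spanned those of ESC3D (10.8, 9.96 and 17.5 TPM) and Embryo3D (13.0, 17.2 and 17.7 TPM). Its 3D EpiSC levels could not be separated from those of EpiLC (adjusted p = 0.44 and 0.11). Without EpiLC replicate 1, Col4a1 and Col4a2 were called higher in Embryo3D (1.08 and 1.18), and Col4a2 was also called without Embryo3D replicate 1 (1.05).

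**Figure D3:**
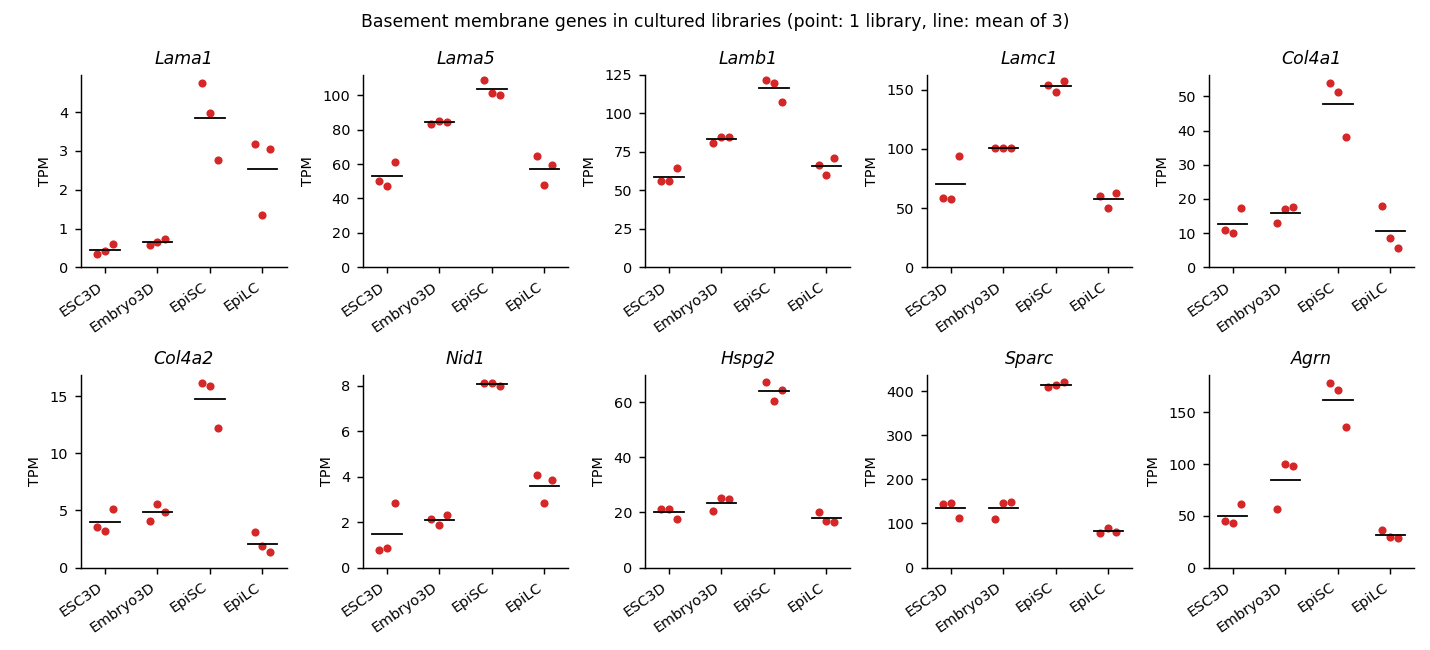
TPM (vertical axis, linear, from 0, scaled per gene) of each of the 10 genes in the 12 culture libraries by group (horizontal axis), with 1 point per library and a line at the mean of 3. EpiSC has the highest mean in all 10 genes, and Lama1 stays below 5 TPM in every culture library.

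Many tested markers of other cell types moved with the members in culture as well. Of the 8 extra-embryonic endoderm markers tested, 7 were called lower in ESC3D than in EpiSC, beside 9.25% of all genes called lower and 0.633% higher. In Embryo3D 4 were lower and 1 higher than in EpiSC, beside 7.75% and 1.07% of all genes. Of the 11 trophoblast markers 7 were tested, and of these 6 were lower in ESC3D and 4 in Embryo3D than in EpiSC, and none was higher. Of the 6 streak and mesoderm markers tested, 3 were lower in ESC3D than in EpiSC, and 2 were lower and 1 higher in Embryo3D. In EpiSC against EpiLC, 6 of 8 endoderm, 6 of 7 trophoblast and 5 of 6 streak and mesoderm markers were higher and none was lower. The shares over all genes were 15.2% higher and 5.14% lower in EpiSC. Some of these markers passed the filter on low values only through 1 group, which fixed the direction a call could take. Gata4 and Gata3 did so through EpiSC, at 3.90 to 10.5 and 3.26 to 10.3 TPM. Pdgfra did so through Embryo3D, at 2.24 to 4.30 TPM. Gata6 averaged 21.5 TPM in EpiSC, 8.05 in Embryo3D, 1.87 in ESC3D and 0.195 in EpiLC, and the ESC3D mean rested on replicate 3 (5.42 TPM), without which it was 0.0904 TPM. Afp, Ttr and Cubn, genes of visceral endoderm, averaged below 1 TPM in every culture group. So did the trophoblast markers Cdx2 (0.0213 TPM in EpiSC) and Elf5 (0.265 TPM in EpiSC), which were not tested. The summed endoderm markers ranged from 155 to 180.01 TPM in EpiSC, from 19.1 to 38.6 in ESC3D, from 29.9 to 64.9 in Embryo3D and from 36.1 to 45.7 in EpiLC. The part of these markers' cell types in the EpiSC levels of the members was not tested.

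The 10 members together held 2286 ± 69.6 TPM at E3.5 (mean ± SD, n = 3), 877 ± 12.5 at E4.5, 839 ± 29.9 at E5.5, 966 ± 38.5 at E6.5 and 659 ± 4.54 at E7.5. In culture the sum was 1088 ± 39.4 TPM in EpiSC, 535 ± 54.6 in Embryo3D, 405 ± 28.1 in ESC3D and 333 ± 22.4 in EpiLC. The sums of ESC3D and Embryo3D did not overlap (386 to 437 and 472 to 567 TPM), nor did those of ESC3D and EpiLC (310.1 to 355 TPM). Autosomal protein-coding genes made up 55.3% to 66.1% of TPM in embryo libraries and 80.1% to 85.1% in cultures. As a share of that part the sums ran from 0.407% at E3.5 to 0.1003% at E7.5, and from 0.133% in EpiSC to 0.041% in EpiLC.

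**Figure D4:**
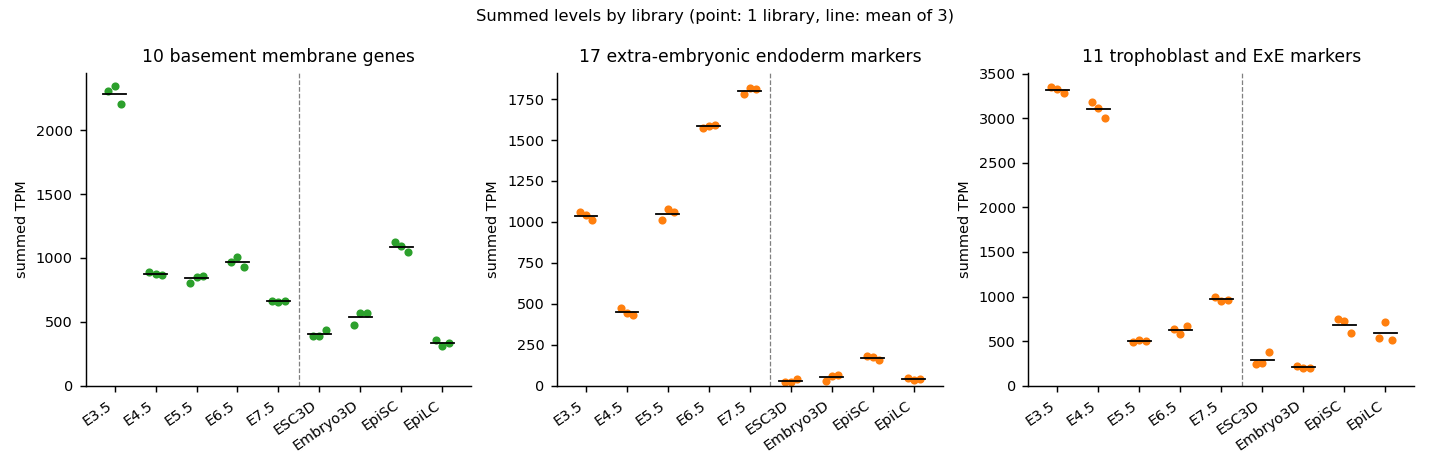
Summed TPM (vertical axes, linear, from 0) of the 10 basement membrane genes, of 17 extra-embryonic endoderm markers and of 11 trophoblast and extra-embryonic ectoderm (ExE) markers in all 27 libraries by group (horizontal axis), with 1 point per library, a line at the mean of 3, and a dashed line between embryo libraries and cultures. The member sum drops from 2286 TPM at E3.5 to 877 TPM at E4.5, where endoderm markers also drop. Endoderm markers then climb to E7.5, while the member sum stands at 839 TPM at E5.5, 966 at E6.5 and 659 at E7.5.

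The composition of the set changed as well. Lamb1 and Lamc1 led at E3.5 with 17.2% and 16.3% of the sum, Nid1 led at E4.5 with 22.3%, Col4a1 led at E5.5 and E6.5 with 18.8% and 20.4%, and Sparc led at E7.5 with 17.3%. In culture Sparc led in all groups, with 25.1% in Embryo3D to 38.1% in EpiSC. Agrn grew from 1.51% of the sum at E3.5 to 14.4% at E7.5, and held 9.48% to 15.6% in the culture groups.

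Ratios between partner genes within a library do not depend on scaling. Of the summed α1 and α5 laminin transcripts, Lama1 held 76.1% ± 0.55 at E3.5, 70.9% ± 0.81 at E4.5, 55.8% ± 0.19 at E5.5, 63.6% ± 2.8 at E6.5 and 50.01% ± 1.04 at E7.5. In culture it held 0.766% ± 0.081 in Embryo3D, 0.844% ± 0.15 in ESC3D, 3.55% ± 0.77 in EpiSC and 4.11% ± 1.2 in EpiLC. Of these 2 α chains, embryo transcripts were thus mostly Lama1 up to E6.5 and evenly split at E7.5, and culture transcripts almost all Lama5. Kit and sample kind cannot be told apart in this contrast. The part of endoderm cells in the Lama1 share of the embryo libraries was not tested. The sum of Lama1 and Lama5 was 1.07 to 1.25 times the Lamc1 level over the stage means and 0.701 to 1.03 times over the culture means. Lamb1 stood near Lamc1 up to E6.5 (0.884 to 1.09 times) and at 1.67 ± 0.0075 times Lamc1 at E7.5.

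Col4a1 exceeded Col4a2 in all 27 libraries. The ratio of their TPM was 1.93 ± 0.06 at E3.5, 1.79 ± 0.15 at E4.5, 2.01 ± 0.07 at E5.5, 2.06 ± 0.10 at E6.5 and 2.08 ± 0.12 at E7.5. In culture it was 3.20 ± 0.21 in ESC3D, 3.28 ± 0.28 in Embryo3D, 3.23 ± 0.11 in EpiSC and 4.88 ± 0.83 in EpiLC. The range in embryo libraries (1.62 to 2.21) and that in cultures (3.03 to 5.79) did not overlap, and library kit and sample kind cannot be told apart here.

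Nid1 lost ground to its paralog Nid2 over the stages, from 87.6% ± 0.25 of the 2 nidogens at E3.5 to 70.0% ± 2.1 at E4.5, 32.9% ± 0.84 at E5.5, 34.6% ± 2.5 at E6.5 and 10.3% ± 0.96 at E7.5. In culture it held 2.06% ± 0.83 in ESC3D, 3.64% ± 0.87 in EpiLC, 6.51% ± 0.31 in EpiSC and 6.99% ± 0.81 in Embryo3D. Perlecan held 78.9% ± 0.55 of the summed Hspg2 and Agrn transcripts at E3.5, 57.3% ± 2.8 at E4.5 and 37.0% to 40.6% over the 3 later stages. From E5.5 on, and in all culture groups, agrin transcripts were the more abundant.

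**Figure D5:**
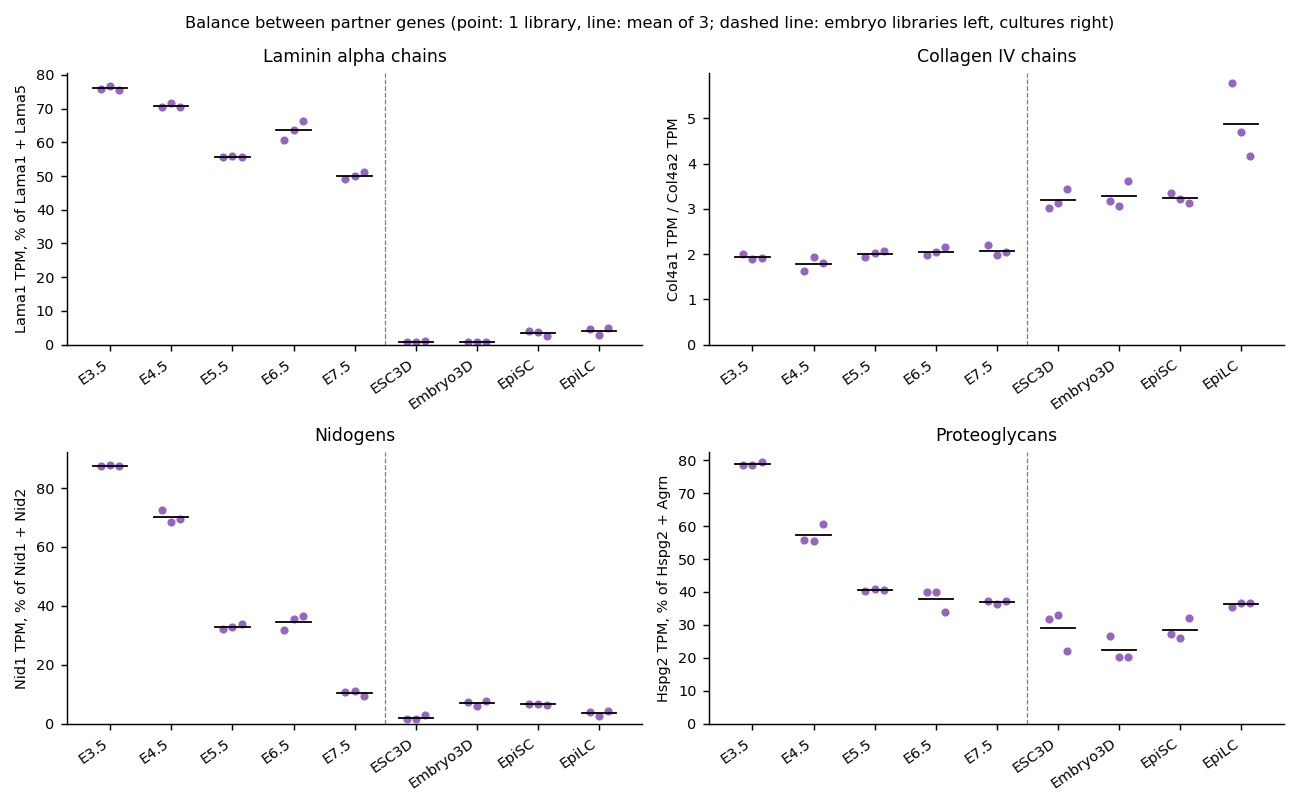
Lama1 as a percent of Lama1 and Lama5 TPM, the Col4a1 to Col4a2 TPM ratio, Nid1 as a percent of Nid1 and Nid2 TPM, and Hspg2 as a percent of Hspg2 and Agrn TPM (vertical axes, linear, from 0) in all 27 libraries by group (horizontal axis), with 1 point per library, a line at the mean of 3, and a dashed line between embryo libraries and cultures. Lama1 holds 50.01% or more of the pair on average at each stage and under 5% in culture.

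Other basement membrane genes were taken from lists that, like the members, were chosen with earlier results of these data known. None of the other 4 collagen IV genes was tested. Col4a3 and Col4a4 averaged below 0.1 TPM in every group. Col4a5 and Col4a6 lie on chromosome X, which was left out of the tests, and their levels are given as values only. Col4a5 averaged 4.71 ± 0.43 TPM in EpiSC, 2.16 ± 0.40 in Embryo3D, 1.25 ± 0.77 in ESC3D and 0.180 ± 0.026 in EpiLC, and 4.02 ± 0.19 TPM at E7.5 against 0.550 ± 0.11 at E6.5. Col4a6 averaged 3.09 ± 0.34 TPM in EpiSC, 1.54 ± 0.42 in Embryo3D, 0.684 ± 0.50 in ESC3D and 0.0354 ± 0.039 in EpiLC, and 3.24 ± 0.61 TPM at E7.5. Among the other laminin chains, Lamb2 stood at 6.83 ± 2.49 TPM in ESC3D (mean ± SD, n = 3), 15.8 ± 1.47 TPM in EpiSC and 4.83 ± 0.80 TPM in EpiLC, and Lamb3 at 0.883 ± 1.38, 3.15 ± 0.40 and 0.225 ± 0.0095 TPM. The ESC3D mean of Lamb3 rested on replicate 3 (2.48 TPM), without which it was 0.0871 TPM. Both were called lower in ESC3D than in EpiSC and higher in EpiSC than in EpiLC. Lama4, a chain of mesenchymal and vascular laminins, fell from 3.40 ± 0.52 TPM at E3.5 to 0.0879 ± 0.089 TPM at E4.5, and at E7.5 it rose from 0.413 to 7.83 TPM and Lamb2 from 5.04 to 12.04 TPM.

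Of 16 other basement membrane matrix genes, 13 were tested in embryos. At E4.5, when 8 of 10 members fell, 6 of these rose and 0 fell, beside 5.88% and 11.9% of all genes tested. The rises were led by Col18a1, which encodes collagen XVIII, from 1.21 to 42.9 TPM, Frem2 from 0.0155 to 4.40 TPM and Nid2 from 19.2 to 83.8 TPM. The median log2 difference of the 13 was 0.17, beside -1.49 for the members and -0.10 for all genes. At E5.5, 5 rose and 1 fell, beside 14.9% and 9.47% of all genes, the fall being Tinagl1 from 248 to 21.2 TPM. At E6.5 none was called, beside 0.715% of all genes called higher and 0.48% lower. At E7.5, 8 rose and 1 fell, beside 10.6% and 1.94% of all genes, with Frem1 from 0.731 to 14.5 TPM. In culture 11 were tested. Of these, 7 were lower and 0 higher in ESC3D than in EpiSC, beside 9.25% and 0.633% of all genes. In Embryo3D 4 were lower and 0 higher than in EpiSC, beside 7.75% and 1.07%. Nid2 and Col18a1 were higher in ESC3D (64.6 and 108 TPM) than in Embryo3D (28.1 and 53.5 TPM), and Frem2 was lower in ESC3D (2.75 against 9.75 TPM).

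Of 15 receptors for laminin and collagen IV, 14 were tested in embryos and 11 in culture. At E4.5, 3 rose and 4 fell, beside 5.88% and 11.9% of all genes tested. Itga7, a laminin-binding integrin chain, went from 0.993 to 56.5 TPM and Ddr2, a collagen receptor kinase, from 32.9 to 3.44 TPM. At E5.5, 1 rose and 5 fell, beside 14.9% and 9.47% of all genes, with Itga7 down to 1.16 TPM. Against EpiSC, 5 were lower and 0 higher in ESC3D and in Embryo3D alike. Of all genes, 9.25% were lower and 0.633% higher in ESC3D, and 7.75% and 1.07% in Embryo3D. Ddr1 was among the 5 in both, at 146 TPM in EpiSC, 60.1 in ESC3D and 50.9 in Embryo3D.

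Among all genes tested, those with patterns most like 3 members were found by Pearson correlation of log2(TPM + 1), as a description over libraries that share stage or culture. Over the 15 embryo libraries, Lama1 was nearest to Glud1 (r = 0.996), Lamc1 (0.994) and Aqp8 (0.986), Col4a1 to Col4a2 (0.984), Tpbgl (0.973) and Lama5 (0.928), and Sparc to Stard10 (0.980), Myo5b (0.974) and Ostf1 (0.970). Over the 12 culture libraries, Foxn3 (0.972) and Elf1 (0.971) were among the genes nearest to Lama1, Col4a1 was nearest to Atp6v0a1 (0.986), Col4a2 (0.972) and Limk2 (0.970), and Sparc to Ptprm (0.994), Colec12 (0.983) and Tax1bp3 (0.982). Col4a2, which starts head to head with Col4a1 as shown above, was among the 3 nearest genes of Col4a1 in both sets.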

How the data were processed

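Bulk RNA of 27 of the 35 samples was analysed. Reads had been clipped (cutadapt 2.4), mapped to mm10 (STAR) and turned into gene TPM (StringTie) by the authors, and the TPM values were used as deposited, with no depth. Lines of 12 repeated gene identifiers were summed and empty cells on 56 lines were set to 0. Autosomal protein-coding genes above 2 TPM in at least 3 libraries (11880 in embryos, 11541 in culture) were tested on log2(TPM + 1) with limma 3.58.1 in R 4.3.3, with 1 fit for the 15 embryo and 1 for the 12 culture libraries. Log2 differences on this scale understate those of low genes. Calls needed a Benjamini-Hochberg adjusted p below 0.05 and a log2 difference over 1 in size. Sums and figures used Python 3.11.15, pandas 2.3.3 and matplotlib 3.10.9.

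All 10 members were named, and from each other list the 3 called genes with the largest difference could be named. Members and lists were chosen with earlier results of these data known. The levels of Afp, Ttr, Cubn, Krt18, Cdx2, Elf5, Pou5f1, Gata3, Gata4, Gata6, Pdgfra, Col4a3, Col4a4, Col4a5 and Col4a6 are given as markers or untested chains. The fit was tested on simulated data. Alternatives were the pseudocount, filter, gene set, 2 scalings, an intensity trend, compared groups only, averaged near-identical replicates, a replicate block and leaving out each library. Some genes of the lists are not reported here.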

Additional observations from a re-analysis of the deposited data

How the results depend on the processing

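The number of members called kept its value or stayed within 1.5 times of it under most alternatives. In ESC3D versus EpiLC it was 1, and became 2 with a pseudocount of 0.1 or protein-coding scaling and 0 with the compared groups only, where Lama1 missed the filter. In Embryo3D versus EpiLC it was 2, and became 1 with the compared groups only, for the same reason. In E7.5 versus E6.5 it was 3, and became 5 under both scalings. Leaving out each library gave 8 to 10 calls in ESC3D versus EpiSC, 6 to 7 in Embryo3D versus EpiSC, 1 to 2 in ESC3D versus EpiLC, 1 to 3 in Embryo3D versus EpiLC, 6 to 7 in EpiSC versus EpiLC, 0 to 0 in ESC3D versus Embryo3D, and 8 to 8, 1 to 1, 0 to 0 and 3 to 3 over the 4 embryo steps in order. The summed TPM rose by construction with protein-coding scaling, to 4065, 1575, 1409, 1634 and 1003 from E3.5 to E7.5 and to 489.5, 656, 1326 and 410.1 in ESC3D, Embryo3D, EpiSC and EpiLC. With median-of-ratios scaling it moved by more than its SD to 966 at E4.5, 1014 at E6.5, 548 at E7.5 and 987 in EpiSC. The replicate block gave the same counts of calls, 8, 6, 1, 2, 6 and 0 in culture in the order above and 8, 1, 0 and 3 in embryos, and changed no other call. Same-numbered libraries did not deviate together (mean r = -0.03 over 18 pairs in culture and -0.02 over 30 in embryos), so the numbers were not taken as pairs. Averaging near-identical replicates was not run for embryos, where no pair was under the limit. Without read counts, the precision of low genes such as Lama1 in culture is unknown.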

Other observations

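Genes that process collagen and matrix formed other lists. Between E3.5 and E4.5, 4 of 18 collagen folding and secretion genes tested fell and 1 rose, beside 11.9% of all genes called lower and 5.88% higher. P4ha2, a collagen prolyl hydroxylase subunit, went from 104 ± 7.59 to 8.52 ± 2.13 TPM (mean ± SD, n = 3), and Plod1, a lysyl hydroxylase, from 27.4 ± 0.35 to 7.77 ± 0.91 TPM. Between EpiLC and EpiSC, 7 of 18 were higher and 1 lower in EpiSC, beside 15.2% and 5.14% of all genes. Loxl2, a lysyl oxidase, stood at 38.8 ± 3.55 TPM in EpiSC and 1.82 ± 0.69 TPM in EpiLC, and Serpinh1, the collagen chaperone HSP47, at 178 ± 14.8 and 35.8 ± 6.02 TPM. Serpinh1 was also higher in both 3D EpiSCs than in EpiLC, at 142 ± 41.1 TPM in ESC3D and 260.1 ± 83.2 TPM in Embryo3D.

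Of 15 matrix proteases and inhibitors tested in embryos, 8 rose and 3 fell at E5.5, beside 14.9% and 9.47% of all genes. Mmp14, a membrane-bound collagenase, went from 2.02 ± 1.30 to 21.5 ± 2.01 TPM, and Htra1, a secreted serine protease, from 108 ± 8.46 to 4.31 ± 0.10 TPM. At E6.5 Mmp9, which degrades collagen IV, rose from 0.377 ± 0.14 to 4.54 ± 0.13 TPM, and at E7.5 it was back at 0.486 ± 0.085 TPM.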
